A study of Mus musculus with 6 samples.

Results

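The 8 T-box genes *Tbx2*, *Tbx3*, *Tbx4*, *Tbx5*, *Tbx15*, *Tbx18*, *Tbx20* and *Tbx22*, a set named for the facial mesenchyme, were examined for Gli3 and Hand2 occupancy. Every peak of 3 ChIP-seq peak lists whose midpoint lay within 100 kb of the body of one of these genes was taken (mm10, GENCODE M21), which gave 79 of 70762 peaks near 8 of 21951 protein-coding genes. Of these, 67 of 59583 came from Hand2 in the mandibular prominence (MNP), 4 of 5427 from Gli3 in the MNP and 8 of 5752 from Gli3 in the whole face.

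The lists come from CD1 mouse embryos with a FLAG tag in the endogenous *Gli3* or *Hand2* locus, precipitated with the anti-FLAG M2 antibody. The 3 groups were Gli3 3XFlagbio whole face, Gli3 3XFlagbio MNP and Hand2 3XFlagbio MNP, as the sample labels give the genotypes, with 2 replicates each and 6 samples in all. The study's reagent list names the bio-tagged allele for *Gli3*, and for *Hand2* an allele called Hand2 3xFlag. Each sample was pooled embryonic tissue, staged E11.5 by the sample labels and E10.5 by the series text, and the labels name no other allele and no treatment. In the study the whole face comprised the frontonasal, maxillary and mandibular prominences. It thus included the MNP, and the 2 Gli3 tissues named below are not separate. A mock ChIP on tissue without the tag served as the control. The replicates of a group were merged into 1 list, so a number of peaks here has no spread between replicates. The lists hold positions and no signal, so the depth behind a peak is unknown and occupancy could not be ranked. They hold no expression either, so whether these genes were active in facial mesenchyme was not checked, and pooled tissue does not show which cells carried a site.

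T-box proteins bind DNA through a shared domain that reads the half-site TCACACCT, and individual members activate or repress transcription. Several are linked in pairs: *Tbx2* and *Tbx4* lie side by side on one chromosome and *Tbx3* and *Tbx5* on another, copies of an ancestral pair. Gli3 is a zinc finger transcription factor of the Hedgehog pathway that binds the Gli motif GACCACCC (cGBM), and GACCTCCC is its divergent form (dGBM). Hand2 is a basic helix-loop-helix factor that patterns the MNP and binds E-boxes, CANNTG, among them CAGATG. *Tbx22* is known for X-linked cleft palate, *Tbx15* and *Tbx18* for skeleton and mesenchyme, and *Tbx20* for the heart.

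Hand2 occupancy differed widely among the 8 genes. There were 21 Hand2 peaks within 100 kb of *Tbx2*, 16 near *Tbx4*, 15 near *Tbx3*, 12 near *Tbx15* and 10 near *Tbx5*. Only 3 lay near *Tbx18*, 2 near *Tbx20* and 1 near *Tbx22*. All 8 genes thus had a Hand2 peak in reach, as did 89% of all protein-coding genes, so presence alone did not set them apart. Their median was 11 peaks against 6 over all protein-coding genes, for which the 90th percentile was 14 and the 99th was 28. Fewer Hand2 peaks than at *Tbx2* were found at 97.1% of protein-coding genes, and the same share was 93.1% for *Tbx4*, 91.6% for *Tbx3*, 84.3% for *Tbx15* and 75.8% for *Tbx5*. For *Tbx18*, *Tbx20* and *Tbx22* it was 24.7%, 17.4% and 11%, in the lower part of the distribution. A gene longer than another has a wider window. Per 100 kb of window the numbers were 10 peaks at *Tbx2*, 7.01 at *Tbx3*, 6.97 at *Tbx4*, 3.96 at *Tbx5*, 3.82 at *Tbx15*, 1.31 at *Tbx18*, 0.781 at *Tbx20* and 0.452 at *Tbx22*, with a median of 2.39 over all genes. On this scale *Tbx3* and *Tbx4* changed places in the order, as did *Tbx5* and *Tbx15*, and each of these pairs differed little.

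**Figure D1:**
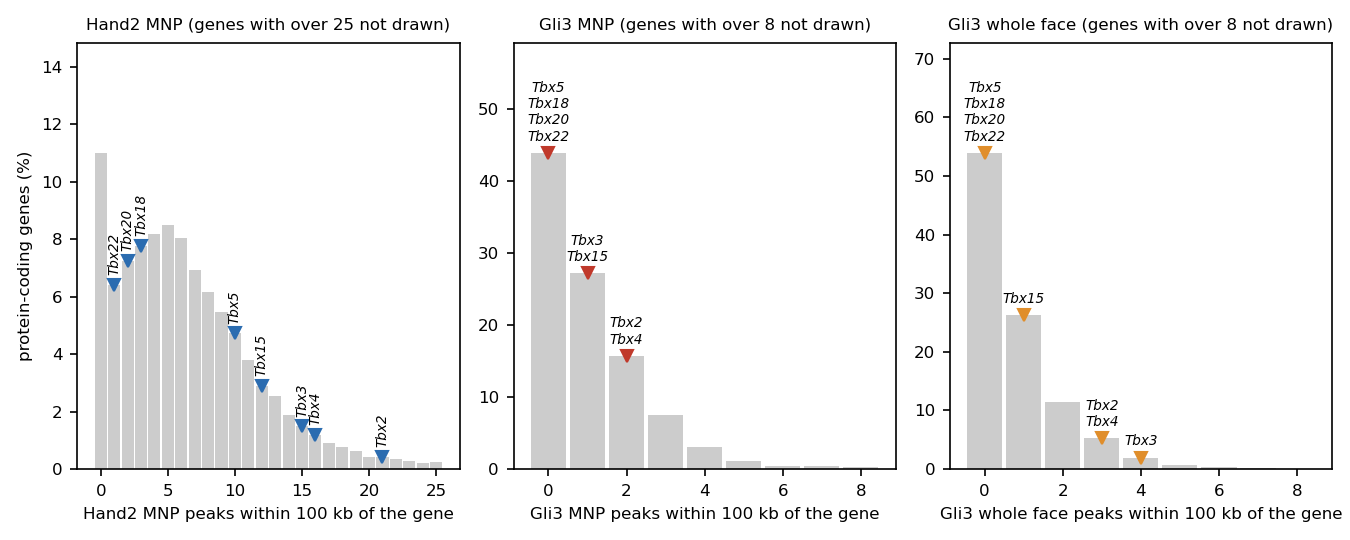
Number of peaks within 100 kb of a gene (x axis) against the percentage of protein-coding genes with that number (y axis, grey bars), for Hand2 MNP, Gli3 MNP and Gli3 whole face, with triangles at the 8 T-box genes. *Tbx2* with 21 Hand2 peaks sits in the right tail and *Tbx22* with 1 at the left, and *Tbx5*, *Tbx18*, *Tbx20* and *Tbx22* sit at 0 for Gli3 in both tissues.

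Gli3 peaks fell within 100 kb of the same 4 genes in both tissues. Gli3 MNP peaks numbered 2 within reach of *Tbx2* and *Tbx4*, 1 at *Tbx3* and 1 at *Tbx15*. Gli3 whole face peaks numbered 4 at *Tbx3*, 3 within reach of *Tbx2* and *Tbx4*, and 1 at *Tbx15*. The other 4 genes, *Tbx5*, *Tbx18*, *Tbx20* and *Tbx22*, had none from either tissue. Having a peak was not unusual, since 56.1% of protein-coding genes had a Gli3 MNP peak within 100 kb and 46.1% had a Gli3 whole face peak. The median over all genes was 1 for the MNP and 0 for the face. The 4 whole face peaks of *Tbx3* exceeded the number at 96.8% of protein-coding genes, and the 3 of *Tbx2* and *Tbx4* exceeded that at 91.6%. In the MNP no member had more than 2, a number that 71.1% of genes did not reach.

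*Tbx2* encodes a repressor that acts in heart, limb and craniofacial development, and *Tbx4* is known for the hindlimb and the lung. *Tbx2* (ENSMUSG00000000093.6) spans chr11:85832551-85841948 and *Tbx4* (ENSMUSG00000000094.12) spans chr11:85886422-85916097, both on the plus strand, with 44.5 kb between them. Their windows overlap, so 13 Hand2 peaks, both Gli3 MNP peaks and the 3 whole face peaks count for both genes, and the distinct Hand2 peaks in the 2 windows number 24. All Gli3 peaks of this pair lay closer to the start of *Tbx2* than to that of *Tbx4*. Here start means the 5′ end of the annotated gene body, and distances are from it to a peak's midpoint.

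The start of *Tbx2* was the 1 position near these genes where all 3 lists overlapped. The Gli3 MNP peak there (chr11:85832018-85832928, 911 bp) had its midpoint 78 bp before the start. The Gli3 whole face peak (chr11:85832271-85832624, 354 bp) was centred 104 bp before it and lay whole inside the MNP peak. The Hand2 peak (chr11:85832225-85833406, 1182 bp) was centred 264 bp after it, in the 5′ UTR, and shared 704 bp with the Gli3 MNP peak. Its sequence held 1 CAGATG and was 73% G and C, the highest share among the 67 Hand2 peaks, whose median was 50.4%.

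Downstream of this, a second Gli3 MNP peak (chr11:85833795-85834499) was centred 1596 bp into *Tbx2*, in an intron, and touched neither other list, with 388 bp to the nearest Hand2 peak. A second whole face peak (chr11:85830108-85830332) lay 2331 bp upstream in an intron of the non-coding RNA *2610027K06Rik*, entirely inside a Hand2 peak (chr11:85829853-85830529) with no CAGATG. The third whole face peak (chr11:85857990-85858199), 25.5 kb downstream between genes, touched no other peak, and the nearest Hand2 peak was 14169 bp away. The closest protein-coding start to it was that of *Gm11444*, at 7761 bp. This peak alone of the 12 Gli3 peaks held the T-box half-site TCACACCT. It also held, within 3 bp of its midpoint, a sequence with 7 of the 8 letters of GACCACCC, shown here as a near match (capitals) because no Gli3 peak near these genes held the whole motif. The 60 bases are from the mm10 reference, chr11:85858061-85858120, minus strand.
Tbx2 downstream, Gli3 whole face: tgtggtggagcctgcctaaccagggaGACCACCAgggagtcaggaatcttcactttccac
The difference from GACCACCC is C8A, with positions counted from 1 at the motif's 5′ end.

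**Figure D2:**
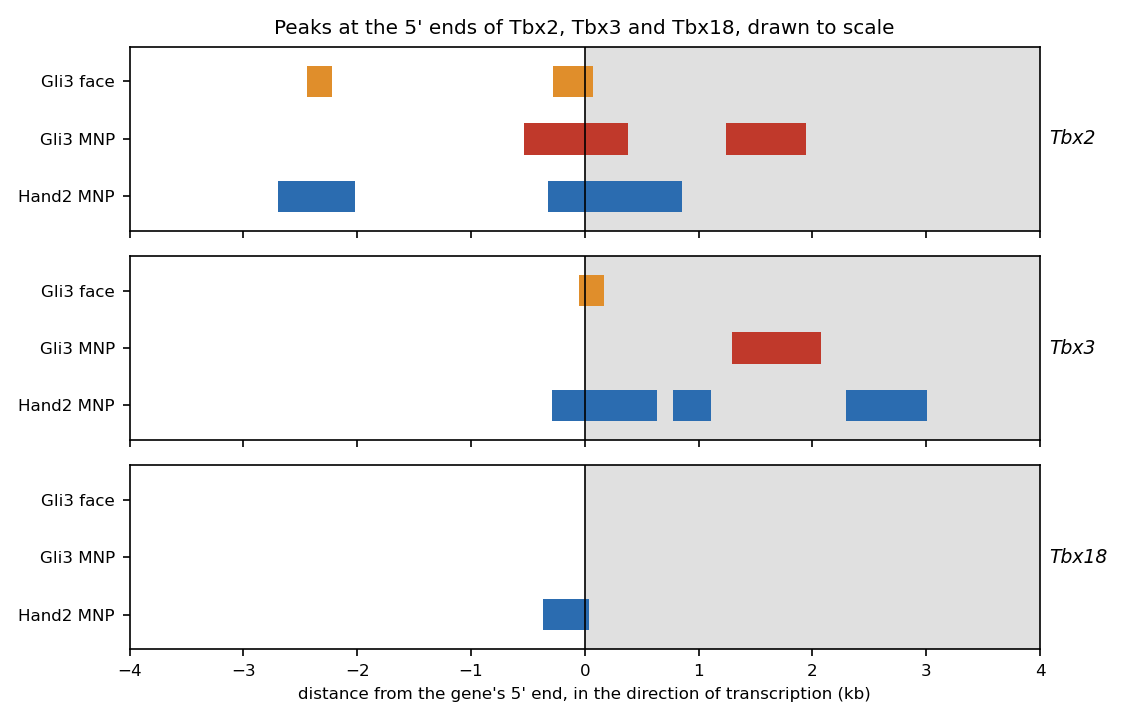
Peaks drawn to scale within 4 kb of the starts of *Tbx2*, *Tbx3* and *Tbx18* (x axis, distance from the start in kb in the direction of transcription; rows, the 3 lists; grey, the gene side of the start). All 3 lists overlap at the start of *Tbx2*, Hand2 and Gli3 whole face overlap at *Tbx3*, and Hand2 alone covers the start of *Tbx18*.

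Of the 21 Hand2 peaks of *Tbx2*, 14 were upstream, 10 of these by over 20 kb, 1 was in the gene and 6 were downstream. In 13 of the 21 the midpoint was in an intron of the neighbouring gene *Bcas3*, and for 12 peaks the start of a *Bcas3* transcript was closer than that of *Tbx2* or *Tbx4*. A run of 7 Hand2 peaks, each at most 10 kb from the next, stretched from 97.9 to 79 kb upstream of *Tbx2* over 18.9 kb, and 2 of these 7 held CAGATG. A shorter run of 3 lay 17.8 to 14 kb upstream, with CAGATG in 1 of them. The most CAGATG sites in 1 Hand2 peak closest to *Tbx2* was 2, in chr11:85745600-85746269 and chr11:85816572-85816844.

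No Hand2 peak covered the start of *Tbx4*, and the nearest was 10143 bp upstream (chr11:85875869-85876689). Another annotated *Tbx4* start lay 10343 bp further into the gene, 13560 bp from the Hand2 peak centred at 23.9 kb. Distances below are from the first start. The nearest protein-coding start was that of *Tbx4* for 8 Hand2 peaks. Of the 16 peaks in its window 9 lay upstream, 2 in the gene and 5 downstream, and all 5 downstream peaks held CAGATG. The peak with the most CAGATG sites, 3, was centred 109 kb past the start (chr11:85995353-85996221). The dGBM sequence GACCTCCC was present without a Gli3 peak in 3 Hand2 peaks of the *Tbx4* window, 1 of them, with no CAGATG, closer to *Tbx2*. The other 2 are shown because they place a Gli motif beside another motif in Hand2-occupied DNA, plus strand, mm10, with GACCTCCC, CAGATG and TCACACCT on either strand in capitals. The first, chr11:85909919-85910013, is in an intron of *Tbx4*, 23.9 kb past the start, where GACCTCCC on the minus strand (read as GGGAGGTC) and TCACACCT share bases. The second, chr11:85941921-85942072, is 55.7 kb past the start, with 46 bp between GACCTCCC and CAGATG (read as CATCTG).
Tbx4 intron, Hand2: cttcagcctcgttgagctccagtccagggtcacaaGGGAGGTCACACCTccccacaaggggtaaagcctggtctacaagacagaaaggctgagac
Tbx4 downstream, Hand2: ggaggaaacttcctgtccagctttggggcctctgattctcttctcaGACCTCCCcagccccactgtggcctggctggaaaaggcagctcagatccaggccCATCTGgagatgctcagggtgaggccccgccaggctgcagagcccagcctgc
The intron peak was the 1 Hand2 peak of 67 (1.49%, 95% Wilson interval 0.264 to 7.98%) that held TCACACCT, against 1.5% of all Hand2 peaks, and the other intervals are of the same kind.

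*Tbx3*, a repressor required in limb, mammary gland and heart, and *Tbx5*, an activator required in the forelimb and the heart, form the other pair. *Tbx3* (ENSMUSG00000018604.18) spans chr5:119670669-119684724 and *Tbx5* (ENSMUSG00000018263.11) spans chr5:119832668-119885219, both on the plus strand, with 148 kb between them. Their windows shared no peak. *Tbx3* had 15 Hand2 peaks, 1 Gli3 MNP peak and 4 whole face peaks, and *Tbx5* had 10, 0 and 0.

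At the start of *Tbx3* the Gli3 whole face peak (chr5:119670623-119670836) was centred 60 bp after the start and lay inside a Hand2 peak (chr5:119670382-119671307, 926 bp) centred 175 bp after it. This Hand2 peak held no CAGATG. A further Hand2 peak followed at 942 bp (chr5:119671447-119671775, no CAGATG) and another at 2649 bp. The Gli3 MNP peak (chr5:119671966-119672742) sat between these, centred 1685 bp after the start in a coding exon. It touched no other peak, with 190 bp to the nearest Hand2 peak, yet it held 2 CAGATG sites while the 3 Hand2 peaks around it held 0. In the MNP, Gli3 and Hand2 peaks at *Tbx3* were adjacent and did not overlap, whereas at the start of *Tbx2* they overlapped. The intronic Gli3 MNP peak of *Tbx2*, 388 bp from the nearest Hand2 peak, did not overlap one either.

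The other 3 whole face peaks of *Tbx3* were distal. One lay 41 kb upstream in an intron of the non-coding RNA *Gm16063* (chr5:119629527-119629745) and one 9937 bp upstream in an intron of *Tbx3os1*, an RNA transcribed from the opposite strand (chr5:119660632-119660833). Neither touched a Hand2 peak, with 7130 and 8536 bp to the nearest. The third, 17.2 kb past the start in an intron of *Tbx3os2* (chr5:119687779-119687987, 209 bp), lay whole inside a Hand2 peak (chr5:119687286-119688132). Its sequence is given because it is the 1 distal position near *Tbx3* where both factors had peaks. It held 5 E-boxes, 2 of them CAGATG, here in capitals on the plus strand of mm10 (CAGATG reads as CATCTG where it lies on the minus strand).
Tbx3 downstream, Gli3 whole face and Hand2: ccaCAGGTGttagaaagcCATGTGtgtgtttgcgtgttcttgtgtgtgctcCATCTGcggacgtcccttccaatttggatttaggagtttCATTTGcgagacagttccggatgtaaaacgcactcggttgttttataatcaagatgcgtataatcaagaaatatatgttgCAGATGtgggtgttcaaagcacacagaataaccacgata
The closest match to GACCACCC in it had 7 of 8 letters (C3A). The peak at 9937 bp upstream held another, C8G, shown in capitals from chr5:119660770-119660829, minus strand.
Tbx3 upstream, Gli3 whole face: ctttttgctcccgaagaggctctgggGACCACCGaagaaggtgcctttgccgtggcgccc

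Hand2 peaks of *Tbx3* numbered 9 upstream, 3 in the gene and 3 downstream, and *Tbx3* had the closest protein-coding start for all 15. Starts of non-coding RNAs were not considered. In 8 of them the midpoint was in an intron of *Tbx3os1*. A run of 6 stretched over 13 kb from 61.5 to 48.5 kb upstream, 2 of them with CAGATG. The peak 19 kb upstream (chr5:119651210-119652095), in an intron of *Gm16064*, held GACCTCCC and CAGATG 18 bp apart, the closest pair among these genes. The 124 bases around them (chr5:119651690-119651813, plus strand, mm10) are given with both in capitals.
Tbx3 upstream, Hand2: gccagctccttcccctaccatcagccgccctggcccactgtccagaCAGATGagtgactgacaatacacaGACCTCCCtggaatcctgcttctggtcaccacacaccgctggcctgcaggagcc
No Gli3 peak touched this Hand2 peak.

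At *Tbx5* 1 of the 10 Hand2 peaks was upstream, 4 were in introns of the gene and 5 were downstream. None covered the annotated start. The nearest (chr5:119835269-119835553) was 2743 bp into the gene and 744 bp from the start of another *Tbx5* transcript. An intronic peak 40.6 kb past the start (chr5:119873096-119873445) held 3 CAGATG sites. A peak 115 kb past the start, outside the gene (chr5:119947447-119948203), was the 1 Hand2 peak of 67 with the cGBM sequence GACCACCC (1.49%, interval 0.264 to 7.98%), against 1.49% of all Hand2 peaks. It lay 499 bp from the CAGATG of the same peak and no Gli3 peak touched it. One downstream peak had the start of *Rbm19* as its closest protein-coding start, at 139597 bp. The 100 bases around the cGBM (chr5:119947970-119948069, plus strand, mm10) are given with the motif in capitals.
Tbx5 downstream, Hand2: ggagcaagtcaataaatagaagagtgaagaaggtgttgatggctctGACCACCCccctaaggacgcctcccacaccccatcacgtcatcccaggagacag

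*Tbx15*, *Tbx18* and *Tbx22* belong to 1 subfamily, and they differed in these lists. *Tbx15* (ENSMUSG00000027868.11, chr3:99240381-99354259, plus strand) had 12 Hand2 peaks, 1 Gli3 MNP peak and 1 whole face peak. *Tbx18* (ENSMUSG00000032419.8, chr9:87702800-87731260, minus strand) had 3 Hand2 peaks, and *Tbx22* (ENSMUSG00000031241.17, chrX:107667964-107688978, plus strand) had 1. *Tbx20* (ENSMUSG00000031965.15, chr9:24718138-24774303, minus strand) had 2.

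The Gli3 peaks of *Tbx15* from the 2 lists were at different places, although the whole face includes the MNP. The MNP peak (chr3:99266800-99267167) lay 26.6 kb into the gene in an intron, and the nearest Hand2 peak was 14066 bp away. The whole face peak (chr3:99211702-99212011) lay 28.5 kb upstream in an intron of the neighbour *Wars2*, and overlapped a Hand2 peak (chr3:99211295-99211988). The stretch that both peaks cover, chr3:99211702-99211988 on the plus strand of mm10, is given because it is the 1 place near *Tbx15* where both factors had peaks. Its E-boxes are in capitals, and 1 of them is CAGATG.
Tbx15 upstream, Gli3 whole face and Hand2: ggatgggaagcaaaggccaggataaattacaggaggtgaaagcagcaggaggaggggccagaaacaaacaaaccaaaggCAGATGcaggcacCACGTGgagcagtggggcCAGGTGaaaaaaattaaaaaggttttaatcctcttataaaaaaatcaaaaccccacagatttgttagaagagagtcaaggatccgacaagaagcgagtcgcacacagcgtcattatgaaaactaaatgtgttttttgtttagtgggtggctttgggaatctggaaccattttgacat
Of the 12 Hand2 peaks of *Tbx15*, 10 lay upstream, 9 had their midpoint in a *Wars2* intron, and for 5 the start of *Wars2* was the closer one. The nearest to the *Tbx15* start was 6683 bp upstream (chr3:99233393-99234004). The 3 CAGATG sites of chr3:99164438-99164934, 75.7 kb upstream, were the most at this gene.

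At *Tbx18* a Hand2 peak covered the start (chr9:87731227-87731628, centred 167 bp upstream) and held 1 CAGATG. It overlapped an exon of the non-coding RNA *D030062O11Rik*, and covered 284 of the 300 bases of the *Tbx18* promoter in RefSeq's GRCm38.p6 promoter set. *Tbx4*, *Tbx18*, *Tbx20* and *Tbx22* were found in that set and *Tbx2*, *Tbx3*, *Tbx5* and *Tbx15* were not. The *Tbx18* promoter was the 1 of these covered by a peak, and its 250 bases before the start (chr9:87731261-87731510, minus strand) are given with CAGATG in capitals. CAGATG occurs, on either strand, in 17.2% of the 32851 promoters of the set.
Tbx18 promoter, RefSeq: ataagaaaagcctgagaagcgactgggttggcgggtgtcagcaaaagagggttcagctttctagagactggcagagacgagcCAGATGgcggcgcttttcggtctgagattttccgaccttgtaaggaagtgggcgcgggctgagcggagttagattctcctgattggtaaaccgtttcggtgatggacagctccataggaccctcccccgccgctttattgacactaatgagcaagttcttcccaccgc
A second Hand2 peak 10.7 kb upstream (chr9:87741797-87742127) held 2 CAGATG sites, and the third, 14 kb into the gene, held none.

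The single Hand2 peak of *Tbx22* lay 44.5 kb upstream between genes (chrX:107623223-107623696) and held 1 CAGATG. The 2 Hand2 peaks of *Tbx20* lay near the edges of its window. One was 99.2 kb upstream (chr9:24873314-24873731) with 1 CAGATG, and the other, 108 kb past the start, was in an intron of *Dpy19l2* with none (chr9:24665663-24665952). The start of *Dpy19l2* was the closer one for the second peak, at 30486 bp. No peak of any list covered the start of *Tbx4*, *Tbx5*, *Tbx15*, *Tbx20* or *Tbx22*.

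**Figure D3:**
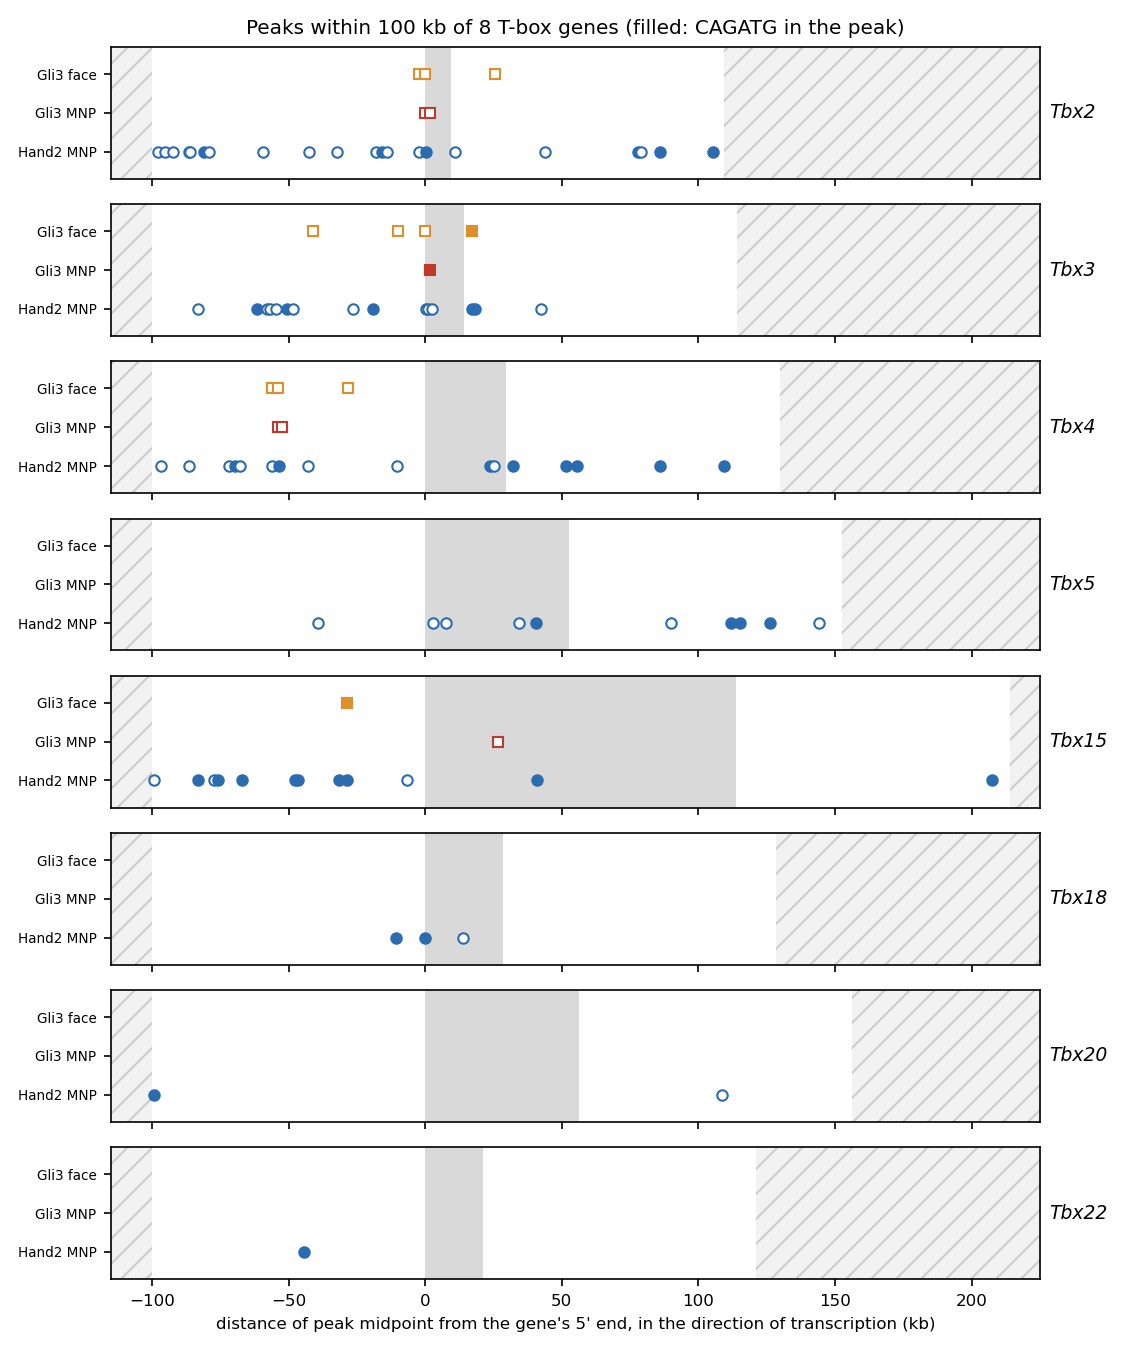
Midpoints of all peaks within 100 kb of each of the 8 genes (x axis, distance in kb from the gene's start in the direction of transcription; rows, Hand2 MNP, Gli3 MNP and Gli3 whole face; grey, gene body; hatched, outside the window). Filled symbols hold CAGATG; Gli3 symbols occur in the panels of *Tbx2*, *Tbx3*, *Tbx4* and *Tbx15* only, and those of *Tbx4* are the same peaks as those of *Tbx2*.

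Overlap between the factors was counted as at least 1 shared base. In the whole face list 5 of 8 Gli3 peaks (62.5%, interval 30.6 to 86.3%) touched a Hand2 MNP peak, against 47.6% of all Gli3 whole face peaks. These were the peaks at the starts of *Tbx2* and *Tbx3*, the one 2331 bp upstream of *Tbx2*, and the distal ones of *Tbx3* and *Tbx15*. In the MNP list 1 of 4 (25%, interval 4.56 to 69.9%) touched a Hand2 peak, against 61.4% of all Gli3 MNP peaks. Both intervals, which cover counting error only, contain the share of their whole list, so no difference from other peaks was detectable with 4 and 8 peaks. The Gli3 lists of the 2 tissues shared 1 position, at the start of *Tbx2*. That is 1 of 4 MNP peaks (25%, against 39.2% of the list) and 1 of 8 whole face peaks (12.5%, interval 2.24 to 47.1%, against 37.6%). Seen from Hand2, 5 of 67 peaks (7.46%, interval 3.23 to 16.3%) touched a Gli3 whole face peak and 1 of 67 (1.49%, interval 0.264 to 7.98%) a Gli3 MNP peak, against 4.54% and 5.89% of all Hand2 peaks. These shares, too, lay within counting error of the whole list.

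Hand2 peaks near the 8 genes held E-boxes about as often as others. CAGATG was present in 32 of 67 (47.8%, interval 36.3 to 59.5%), against 47.1% of all Hand2 peaks, and CANNTG in 60 of 67 (89.6%, interval 80 to 94.8%), against 92.3%. By gene, CAGATG was found in 7 of 21 Hand2 peaks in the window of *Tbx2*, 5 of 15 at *Tbx3*, 8 of 16 at *Tbx4*, 4 of 10 at *Tbx5*, 9 of 12 at *Tbx15*, 2 of 3 at *Tbx18*, 1 of 2 at *Tbx20* and 1 of 1 at *Tbx22*. The 67 peaks held 46 CAGATG sites in total, with 35 peaks without a site, 21 with 1, 8 with 2 and 3 with 3. A share of 16.4% thus held 2 or more (interval 9.42 to 27.1%), against 15.6% of all Hand2 peaks. The sites lay a median of 119 bp from the peak midpoint, against 100 bp over all Hand2 peaks. GACCTCCC was found in 5 of 67 (7.46%, interval 3.23 to 16.3%), against 1.82% of all Hand2 peaks, which is below the interval. CAGATG lay in 3 of these 5. The comparison was picked out after the values were seen, among several motifs, and was not tested.

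**Figure D4:**
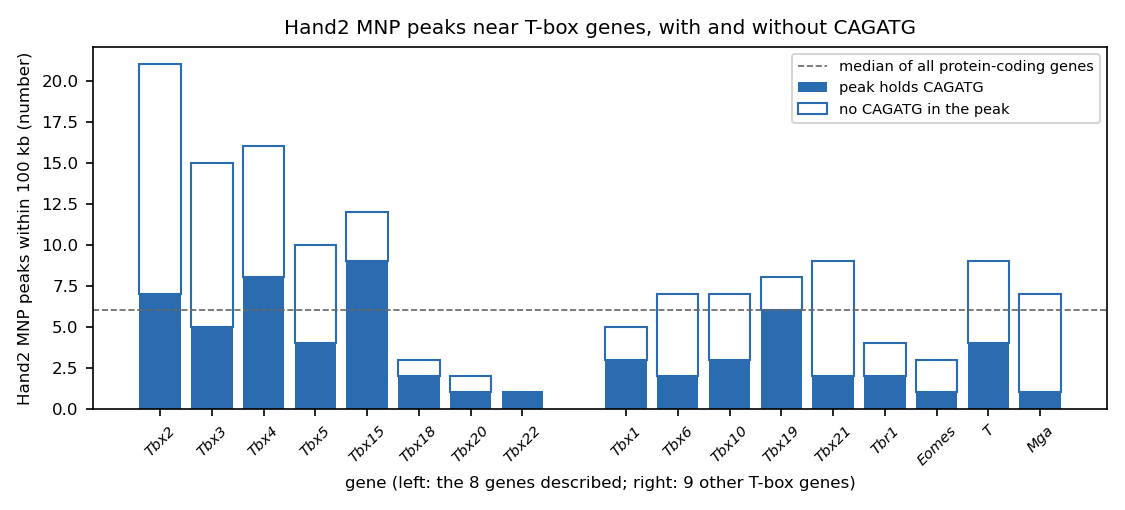
Hand2 MNP peaks within 100 kb (y axis, number) of the 8 genes described (left) and of 9 other T-box genes (right), with the part of each bar that holds CAGATG filled and the median over all protein-coding genes dashed. In number of peaks, not per length of window, *Tbx2*, *Tbx3*, *Tbx4*, *Tbx5* and *Tbx15* stand above every gene on the right. *Tbx18*, *Tbx20* and *Tbx22* stand at or below the lowest of them.

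The Gli3 peaks near these genes lacked the exact Gli motifs. GACCACCC was in 0 of 4 MNP peaks (interval up to 49%) and 0 of 8 whole face peaks (interval up to 32.4%), against 13.3% and 19.8% of the whole lists. GACCTCCC was likewise in 0 of 4 and 0 of 8, against 6.6% and 6.17%. With so few peaks these counts were within counting error of the lists. The median width was 741 bp for the 4 MNP peaks and 216 bp for the 8 whole face peaks, against 577 and 222 bp in the lists. A wider peak has more room for a motif or an overlap, so shares of the 2 Gli3 lists are not directly comparable. A sequence with at least 7 of the 8 letters of GACCACCC was in 2 of 4 MNP peaks (interval 15 to 85%) and 3 of 8 whole face peaks (interval 13.7 to 69.4%), against 67.1% and 66.4%. The MNP near matches were both at *Tbx2*, C7G at its start and C6G in its intron. The core CCTCC, which is short and common, was in 4 of 4 MNP peaks (interval 51 to 100%) and 5 of 8 whole face peaks (interval 30.6 to 86.3%), against 90.3% and 66.5%. The study classed a Gli3 and Hand2 overlapping peak as dGBM where it lacked an approximate cGBM match and held at least CCTCC. That rule is looser than exact GACCTCCC and was not applied here. CAGATG was in 1 of 4 MNP peaks (interval 4.56 to 69.9%), that of *Tbx3*, against 27.2% of the list. It was in 2 of 8 whole face peaks (interval 7.15 to 59.1%), distal ones of *Tbx3* and *Tbx15*, against 23.3%.

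Distances of the Hand2 peaks from starts were within counting error of the whole list. Within 1 kb of any protein-coding start lay 6 of 67 (8.96%, interval 4.17 to 18.2%), against 13.3% of all Hand2 peaks, and over 20 kb from any lay 41 of 67 (61.2%, interval 49.2 to 72%), against 62.4%. From the start of the closest of the 8 genes, 4 lay within 1 kb and 48 over 20 kb away. Introns held 31 of the 67 midpoints, 23 of them in genes other than the 8, introns of non-coding RNAs held 12, and 18 fell between genes. The closest protein-coding start was that of one of the 8 genes for 47 of 67 Hand2 peaks, 4 of 4 Gli3 MNP peaks and 7 of 8 whole face peaks. The Hand2 peaks had a median width of 497 bp, against 451 bp in the list. Crowded positions, with 4 or more Hand2 peaks within 10 kb (the peak itself included), numbered 13 of 67 (19.4%, interval 11.7 to 30.4%), against 11.4% of all Hand2 peaks. Peaks of 1 run are counted together here and are not independent, so the interval is too narrow. These 13 were 6 at *Tbx2*, 6 at *Tbx3* and 1 at *Tbx15*.

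The other 9 T-box genes examined, *Tbx1*, *Tbx6*, *Tbx10*, *Tbx19*, *Tbx21*, *Tbr1*, *Eomes*, *T* and *Mga*, had 3 to 9 Hand2 peaks each, with a median of 7. Their Gli3 peaks numbered 0 to 2 in each tissue. A Gli3 MNP peak was near 7 of the 9 and a whole face peak near 7, with 6 genes in both, against the same 4 of the 8 in both. By number, all 5 genes of the main group with 10 or more Hand2 peaks, *Tbx2*, *Tbx3*, *Tbx4*, *Tbx5* and *Tbx15*, exceeded the highest of the 9. *Tbx20* and *Tbx22* were below the lowest, *Eomes* with 3. Per 100 kb of window, *T* with 4.33 and *Tbx21* with 4.14 stood above *Tbx5* (3.96) and *Tbx15* (3.82). On that scale *Tbx2*, *Tbx3* and *Tbx4* stayed above all 9. Hand2 peaks covered the start of *Tbx21*, a regulator of T helper cells, and of *Tbr1*, a gene of cortical neurons, as they did those of *Tbx2*, *Tbx3* and *Tbx18*. The share of all protein-coding genes with a covered start was not counted. Of all 59583 Hand2 peaks, 7896 (13.3%) lay within 1 kb of a protein-coding start, which is a share of peaks and not of genes. Whether a covered start sets these genes apart was not tested.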

How the data were processed

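ChIP-seq was performed with the anti-FLAG M2 antibody on 6 samples, 2 in each of 3 groups, assigned from the sample labels. Single-end 75 bp reads were mapped by the authors to mm10 (GRCm38) using bwa, and replicate peak sets were then joined through bedtools. HOMER also appears in the submitters' processing notes, without a version, and which caller made these lists was not given in the sources used here. Each deposited file holds peak names with their start and end, and no signal, score or count, so the deposited values are positions. Every entry of the 3 lists names a peak of each replicate.

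Peaks were assigned by midpoint within 100 kb of a gene body (GENCODE M21). Overlap was 1 bp. The motifs GACCACCC and GACCTCCC, CAGATG and CANNTG, and also TCACACCT were counted exactly on both strands, and CCTCC and matches of 7 letters were added after the data were seen, and a start within 1 kb was called promoter-proximal. Intervals of shares are 95% Wilson intervals, for counting error alone, and counts per gene carry none. No test was run. The genes and lists were chosen with earlier results of these data known. Genes named were the 8 members, the other T-box genes, and neighbours whose start was closer to a described peak; hosts of introns were named beside their peaks. Peaks described singly were all Gli3 peaks and those Hand2 peaks that touched one, were nearest to a start or held the most CAGATG; Hand2 peaks with a Gli motif, with no CAGATG or in runs were singled out after their values were seen. Window, overlap and motif counts were tested on simulated data and were right in 300 overlap, 200 window and 200 motif cases. Python 3.11.15, numpy 2.4.6, scipy 1.17.1 and matplotlib 3.10.9 were used.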

Additional observations from a re-analysis of the deposited data

How the results depend on the processing

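Of 47 alternatives for 8 results, 36 left the value within 1.5 times the count or within the interval of the share. Some of the 36 could not move. Every entry names both replicates, and a GACCACCC share of 0% stays 0% in any part of the same peaks. The window of 200 kb takes in further peaks, and there 1 of 13 Gli3 whole face peaks (7.69%) held GACCACCC. The number of Hand2 peaks near the 8 genes (67) became 39 with a window of 50 kb, 110 with 200 kb and 37 among peaks at least as wide as the list's median. Gli3 whole face peaks (8) became 13 with 200 kb and 3 with the same limit on width. Which genes had a Gli3 peak also changed with the window. With 50 kb *Tbx4* had 0 Gli3 MNP peaks and 1 whole face peak. With 200 kb *Tbx5*, which had none within 100 kb, had 2 Gli3 MNP peaks and 4 whole face peaks. These included the Gli3 MNP peak of *Tbx3* described above. They also included the *Tbx3* whole face peaks at its start, 9937 bp upstream and 17.2 kb past the start. Leaving out promoter-proximal peaks took the share of Gli3 MNP peaks that touch a Hand2 peak from 25 to 0%, since the 1 such peak is at the start of *Tbx2*. The share of Hand2 peaks with CAGATG (47.8%) was 22.4% in the middle 200 bp, a shorter stretch. Weaker forms of the Gli motif were added after the data were seen: 7 or 8 letters of GACCACCC gave 50% (MNP) and 37.5% (face), and CCTCC gave 100% and 62.5%, in place of 0%. No paired analysis was possible because the results come from no test and both replicates are merged into 1 list. Leaving out a replicate was not run, since each entry names peaks of both, and keeping only such entries changed no count. Counts of 4 and 8 Gli3 peaks limit every share drawn from them, and read depth is unknown.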
